A study of Mus musculus with 6 samples.

Results

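The 9 genes described here were taken by gene symbol, as genes that mark B cells and the plasma cells derived from them, from a list drawn up with earlier results of these libraries known. They are the B cell surface genes Cd79a, Cd79b and Ms4a1, the invariant chain gene Cd74, the immunoglobulin constant genes Ighm, Ighd, Igkc and Ighg2b, and the J chain gene Jchain, 9 of the 29199 genes in the table of counts. All 9 had counts high enough to be tested, among 18321 genes that were. They were read in RNA of sorted regulatory T cells (Treg), which are of the T and not the B lineage, in every one of 6 libraries.

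Lethally irradiated hosts, C57BL/6 J (B6) or CD45.1+ B6 mice, were given equal parts of C57BL/6 J and semi-allogeneic B6D2F1 bone marrow, from which NK and T cells had been removed, together with expanded wild-type (WT) Treg of B6 Foxp3-Thy1.1 mice and naive conventional CD4 T cells (Tconv). The Tconv were WT or lacked the heterochromatin protein HP1α (KO). CMV-cre deletes the floxed Hp1a allele in all cells of the donor mouse, on a mixed 129/Sv and C57BL/6 background, and control and KO Tconv came from littermates of 6 to 12 weeks. The Treg themselves were WT in both groups, and their Thy1.1 marker is driven by Foxp3. After 3 weeks, CD4 cells of the spleen were enriched on beads and Treg were sorted as CD4+Thy1.1+ cells that carried CD45.2 and H-2Kb and lacked CD45.1 and H-2Kd, a gate that uses no B cell antigen. There were 3 libraries of Treg exposed to WT Tconv (WT replicates 1, 2 and 3) and 3 of Treg exposed to HP1α KO Tconv (KO replicates 1, 2 and 3). Whether a replicate is 1 host or a pool of hosts is not given in the sources used here, so p-values measure the spread between these libraries only.

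A B cell carries its antigen receptor as a membrane immunoglobulin, made of heavy chains (first the μ chain of Ighm, later also the δ chain of Ighd) and light chains (κ from Igkc, or λ), held by the signalling pair encoded by Cd79a and Cd79b. A variable (V) and a joining (J) segment are joined upstream of the constant exons, in heavy chains with a diversity (D) segment between them and in light chains without one, and switching then exchanges Ighm for a downstream gene such as Ighg2b. Plasma cells secrete the product, and the J chain links the secreted IgM and IgA into polymers. The unrearranged heavy chain locus can also be transcribed, from starts near the D and J segments, into RNA that holds constant exons and no V segment, and such RNA is known in T cells. In the spleen B cells are abundant, so these transcripts are a usual check of a T cell sort.

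RNA from a heavy chain gene with a joined V segment holds V and J sequence. RNA from a locus without a joined V segment holds no V sequence, and may or may not hold J sequence. The short segments between the V genes and Ighm thus bear on how the immunoglobulin counts are read. In GRCm39 they lie on the minus strand of chromosome 12, Ighd4-1 at chr12:113394148-113394158, Ighj1 at chr12:113393401-113393453, Ighj2 at chr12:113393088-113393135, Ighj3 at chr12:113392705-113392752 and Ighj4 at chr12:113392134-113392187. They are shown 5′ to 3′ on the coding strand, and the capitals mark TGGGG, any 4 bases and GG, which codes for the conserved tryptophan and glycines of the J region and was found once in each of the 4 J segments on this strand.
Ighd4-1: ctaactgggac
Ighj1: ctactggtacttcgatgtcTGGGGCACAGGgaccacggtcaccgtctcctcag
Ighj2: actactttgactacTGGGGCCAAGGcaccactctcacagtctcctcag
Ighj3: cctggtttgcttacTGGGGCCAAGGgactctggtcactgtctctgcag
Ighj4: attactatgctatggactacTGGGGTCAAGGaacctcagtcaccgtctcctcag
The annotated Ighj2 gene runs on upstream to base 113393187, with 100 exon bases in all, so its counts may also cover sequence before the stretch shown. Each stretch shown is shorter than a read as sequenced, before trimming. A read counted to one of them may therefore also hold sequence beside it, and which sequence that is cannot be seen in gene counts.

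Library totals ranged from 87421755 to 119078882 counts, and 3 counts, the upper limit that a count of 0 allows, correspond to 0.0252 to 0.0343 CPM (the count over the library total times 1000000). Replicates of a group differed by more than counting noise. Of the T cell and Treg genes, Foxp3 was at 157.9 to 254 CPM, Cd4 at 707 to 851 CPM and Cd3e at 151 to 221 CPM. WT replicate 3 stood apart in genes of other cells. Its 8 red cell genes summed to 6594 CPM against 412 to 765 CPM in the other 5 libraries, its 10 neutrophil genes to 1872 CPM against 43.0 to 234 CPM, and its 10 macrophage and monocyte genes to 466 CPM against 289 to 381 CPM. Group comparisons are therefore also given without this library where it decides their size or direction. Since RNA was measured in bulk, fewer cells of a type and less RNA per cell cannot be told apart.

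The members fell into 2 patterns across the libraries. Ighm, Cd79b and Ighd varied little over the 6 libraries, and Cd74 varied more, 1.91-fold from its lowest to its highest, but none of these 4 was high in WT replicate 3. Cd79a, Ms4a1, Ighg2b and Jchain were high in WT replicate 3. In the other 5 libraries they were near the bottom of the range, but for Jchain in KO replicate 1 (2.88 CPM). Igkc was high in WT replicate 3 on top of a level that all libraries had. In WT replicate 3, 5 of the 9 members (55.6%) reached at least 3 times the median of the other 5 libraries, where 3.77% of all tested genes did. The members were chosen with earlier results of these libraries known, so that share is a description.

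**Figure D1:**
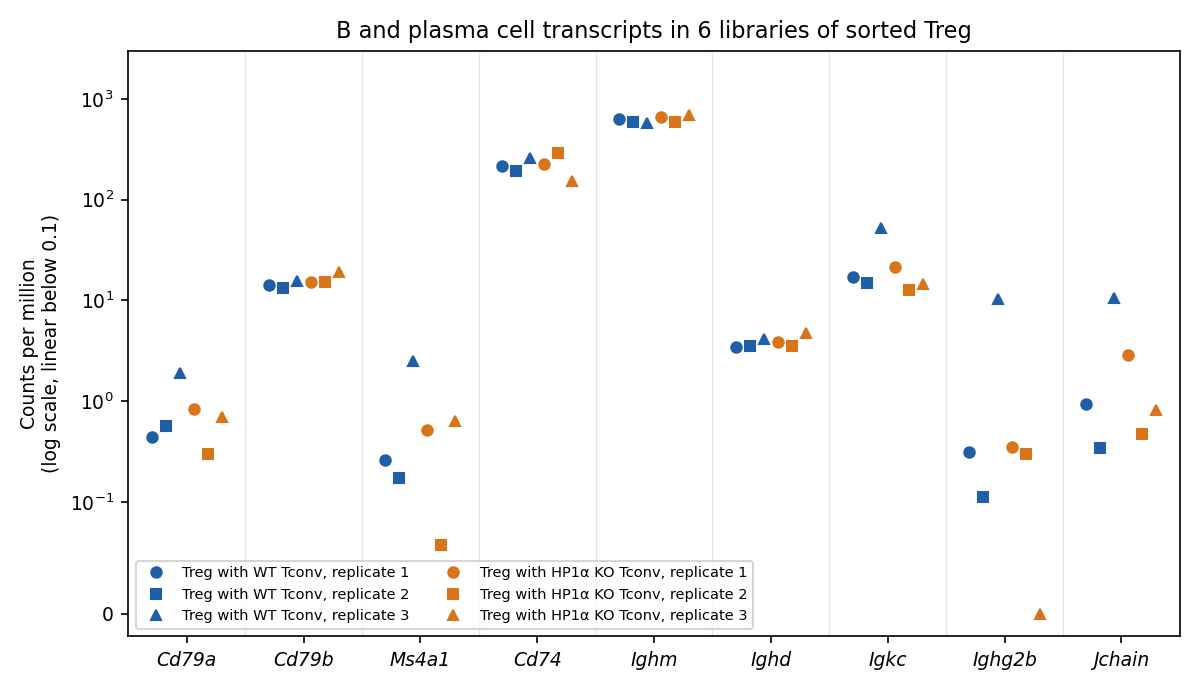
CPM of the 9 members (vertical axis, log scale, linear below 0.1) in the 6 libraries, with 1 point per library, blue for Treg exposed to WT Tconv and orange for Treg exposed to HP1α KO Tconv. The blue triangle, WT replicate 3, lies above the other 5 points for Cd79a, Ms4a1, Igkc, Ighg2b and Jchain, among them for Cd79b, Cd74 and Ighd, and just below them for Ighm.

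Of the receptor genes, Cd79b (ENSMUSG00000040592, chr11:106202167-106205588, minus strand), whose product is Igβ, was the steady one. It was counted at 14.1, 13.2 and 15.6 CPM in WT replicates 1, 2 and 3 and at 15.2, 15.4 and 19.0 CPM in the KO replicates. The highest value was that of KO replicate 3, and the groups overlapped only through WT replicate 3. Cd79a (ENSMUSG00000003379, chr7:24596740-24601622, plus strand) encodes Igα, the obligate partner of Igβ in the receptor. It was at 0.436, 0.568 and 1.89 CPM in the WT replicates, from 42, 56 and 225 counts, and at 0.837, 0.298 and 0.698 CPM in the KO replicates, from 76, 29 and 61 counts. WT replicate 3 was thus 3.33 times the median of the other libraries, and the groups overlapped. Ms4a1 (ENSMUSG00000024673, chr19:11227039-11243605, minus strand) encodes CD20, a surface protein of mature B cells. Its counts were 25, 17 and 295 in the WT replicates and 47, 6 and 56 in the KO replicates, which is 0.260, 0.172 and 2.48 CPM and 0.518, 0.0617 and 0.641 CPM. Only WT replicate 3 exceeded 1 CPM, at 9.54 times the median of the others, and KO replicate 2 was lowest.

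Although their products pair one to one, Cd79a and Cd79b were far apart in level. Per kilobase of annotated exon, Cd79b was at 9.21 to 13.3 CPM in the 6 libraries and Cd79a at 0.196 to 0.549 CPM in 5 of them and 1.24 CPM in WT replicate 3. The ratio of Cd79b to Cd79a per kilobase was 19.3 to 54.8 in the 5 libraries and 8.78 in WT replicate 3. Only the level of Cd79a, not that of Cd79b, was higher in that library. Cd3e, a chain of the T cell receptor complex, was 96.1 to 189 times Cd79a per kilobase in the 5 libraries and 36.5 times in WT replicate 3. Against Cd79b the same ratio was 3.44 to 5.70 over all 6 libraries.

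The 300 bases around the start of a gene are shown for the 2 members that the RefSeq table held, Cd79a and Jchain, which were both high in WT replicate 3. Both are from GRCm38.p6, an assembly other than that of the counts, and run 5′ to 3′ on the coding strand, Cd79a at chr7:24897247-24897546 (plus strand) and Jchain at chr5:88527848-88528147 (minus strand). Capitals mark CANNTG, the E-box, a motif of basic helix-loop-helix factors that reads alike on both strands.
Cd79a: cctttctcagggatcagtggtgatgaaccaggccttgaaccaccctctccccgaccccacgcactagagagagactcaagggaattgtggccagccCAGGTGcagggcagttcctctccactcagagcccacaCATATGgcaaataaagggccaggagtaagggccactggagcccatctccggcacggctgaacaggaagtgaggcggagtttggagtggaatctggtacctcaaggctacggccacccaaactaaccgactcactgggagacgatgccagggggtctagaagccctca
Jchain: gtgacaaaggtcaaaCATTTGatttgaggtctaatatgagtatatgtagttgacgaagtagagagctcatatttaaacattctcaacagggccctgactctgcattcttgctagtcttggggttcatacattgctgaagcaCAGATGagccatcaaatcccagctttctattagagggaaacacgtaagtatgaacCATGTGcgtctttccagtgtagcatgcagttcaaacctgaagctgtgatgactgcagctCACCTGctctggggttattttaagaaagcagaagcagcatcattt
Cd79a held 2 E-boxes and Jchain 4, and 72.3% of the 32851 promoters in the table hold at least 1. The exact letters CCCNNGGG, from the EBF1 consensus, and ATGCAAAT, the octamer, were searched on both strands. They were in neither window and are in 13.7% and 1.74% of all promoters. Sites that depart from these letters were not searched for, so their absence does not show that a window lacks a site. Matches of these lengths are a description of the sequence, and no binding was measured.

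Cd74 (ENSMUSG00000024610, chr18:60936899-60945731, plus strand) encodes the invariant chain, which fills the groove of new MHC class II molecules in B cells, dendritic cells and macrophages, so it marks B cells less narrowly than the other members. It was at 215, 193 and 256 CPM in the WT replicates and at 228, 291 and 152 CPM in the KO replicates. Both the highest and the lowest library were KO replicates, and WT replicate 3 was 1.19 times the median of the others. The class II chain genes were lower by far. H2-Aa, which encodes an α chain that the invariant chain binds, was at 0.541 to 1.498 CPM per kilobase in 5 libraries and 2.96 in WT replicate 3, against 60.6 to 116 for Cd74 in all 6. Cd74 therefore exceeded H2-Aa 40.6 to 142 times per kilobase in the 5 libraries, and 34.4 times in WT replicate 3.

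Of the 9 tested class II genes, 0 reached 3 times the other libraries in WT replicate 3. An unadjusted edgeR p-value under 0.05 was obtained for 2 of the 9 in the direction of Treg exposed to KO Tconv, where 6.98% of all tested genes had one, and for 0 in the other. These were H2-DMa, a chain of the peptide loading factor, at 25.2, 28.0 and 29.3 CPM in the WT and 32.6, 43.4 and 32.5 CPM in the KO replicates, and H2-Oa, a chain of its inhibitor, at 5.54 to 6.46 and 7.21 to 8.22 CPM. The groups did not overlap for either gene, as for 23.9% of all tested genes, and the edgeR adjusted p-values were 0.257 and 0.297, so neither passed. H2-Ob and H2-Eb1, the other class II genes of highest level, gave an edgeR adjusted p of 0.589 and 0.972. WT replicate 3 decided the count of class II genes whose groups were apart, which was 7 of 9 without it, all higher in Treg exposed to KO Tconv, where 19.9% of all genes tested in that fit were apart in that direction. H2-Eb1 was at 4.79 to 4.82 CPM in WT replicates 1 and 2, at 6.45 to 8.28 CPM in the KO replicates and at 11.7 CPM in WT replicate 3, above all of them. H2-Aa, at 2.32 to 3.65 CPM, 6.13 to 6.43 CPM and 12.7 CPM, and H2-Ab1, at 3.33 to 3.74 CPM, 5.24 to 7.77 CPM and 11.3 CPM, had the same order, as did Ciita, the coactivator of class II transcription, at 1.10 to 1.39 CPM, 2.10 to 2.62 CPM and 2.83 CPM. In the fit without WT replicate 3, 6 of the 9 genes had an unadjusted edgeR p-value under 0.05 in that direction, where 5.52% of all genes did. None of the 9 passed after adjustment (smallest edgeR adjusted p among the 9 = 0.380), where 0% of all genes did.

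Markers of other cells moved with the class II genes in that fit. Of the 10 macrophage and monocyte genes, 8 had a log2 fold change above 0 (median 1.10), and 4 had both an unadjusted edgeR p-value under 0.05 and groups apart, higher in Treg exposed to KO Tconv. These were Adgre1, which encodes F4/80, Mpeg1, and the complement genes C1qb and C1qc, at no more than 6.09 CPM in the 5 libraries. All 10 neutrophil genes (median 1.27) and all 8 red cell genes (median 0.60) were above 0, of which 0 and 2 had such a p-value. Of the 4 dendritic cell genes tested, 3 were below 0 (median -0.25), with 1 such p-value in each direction. Of the 15 tested B cell genes other than the members, 4 were below 0 (median 0.37). The groups of 4 of the 15 were apart, higher in Treg exposed to KO Tconv, with 0 such p-values in that direction and 1 in the other. Over all genes tested in that fit, 48.7% had a log2 fold change below 0. The groups were apart for 19.9%, higher in Treg exposed to KO Tconv. An unadjusted edgeR p-value under 0.05 was found for 5.52% in that direction and 5.72% in the other. The macrophage and monocyte genes summed to 289 to 331 CPM in WT replicates 1 and 2 and 299 to 381 CPM in the KO replicates, the neutrophil genes to 43.0 to 102 and 80.8 to 234 CPM, and the red cell genes to 412 to 423 and 426 to 765 CPM. None of the macrophage, neutrophil or red cell markers was at 0 in any library. The part of these cells, and of B cells, in the class II values was not tested.

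Ighm (ENSMUSG00000076617, chr12:113382178-113386350, minus strand), the μ constant gene, was the member of highest level per kilobase in every library. It was at 629.8, 595 and 579.8 CPM in the WT replicates, from 60661, 58665 and 69039 counts, and at 665, 586 and 684 CPM in the KO replicates, from 60372, 56952 and 59816 counts. The 6 values lay close together, and WT replicate 3 was the lowest of the 6. Ighd (ENSMUSG00000104213, chr12:113370224-113379944, minus strand), the δ constant gene just downstream, was at 3.41, 3.54 and 4.14 CPM in the WT and 3.84, 3.53 and 4.72 CPM in the KO replicates. KO replicate 3 was highest for Ighd as for Ighm, and the groups overlapped for both. Per kilobase, Ighm was 141 to 186 times Ighd.

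The level of Ighm per kilobase, 307 to 363 CPM, lay above that of Cd3e (36.9 to 54.1) and Foxp3 (34.5 to 55.5), the factor that defines Treg, in all 6 libraries. It also lay above Cd3d (145 to 172) and Cd4 (157 to 189), and below the T cell receptor gene Trac (820 to 1013), in all 6. The level of Ighm was 8.75 to 13.3 times that of Igkc in 5 libraries and 3.16 times in WT replicate 3. It was 641 to 1586 times that of Cd79a in the 5 libraries and 248 times in WT replicate 3. Relative to Cd79b the range was narrow, 27.4 to 34.2 times over all 6 libraries.

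**Figure D2:**
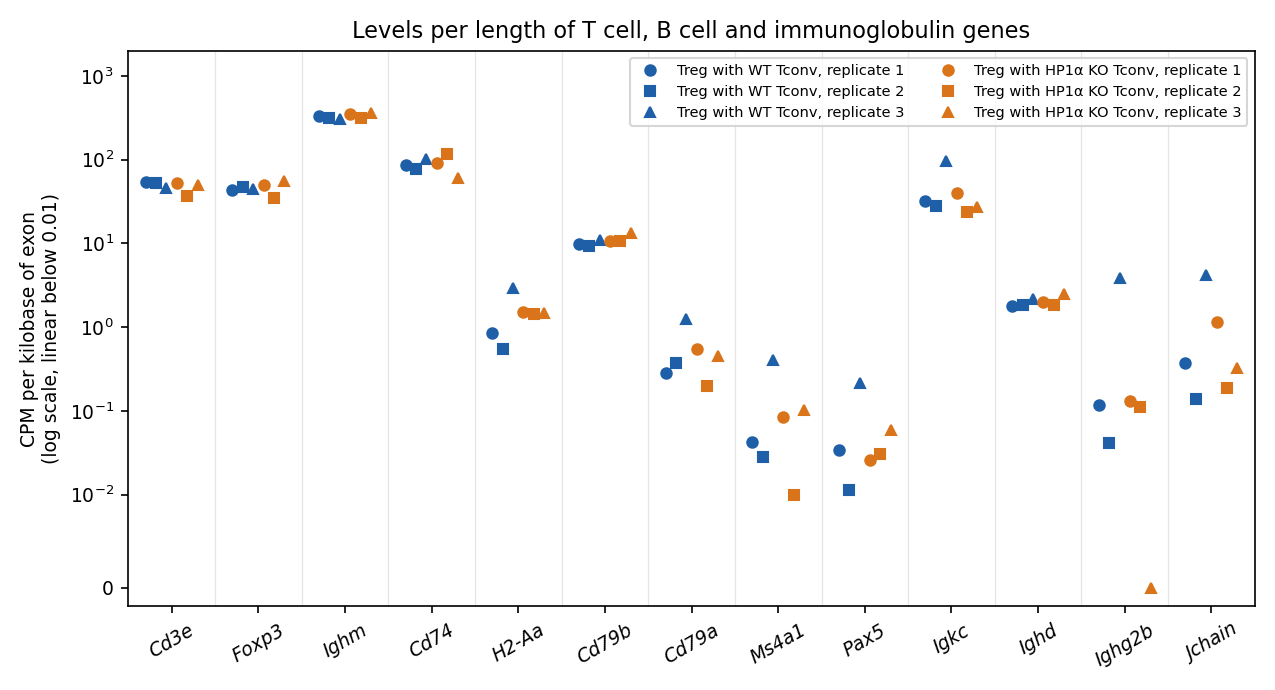
CPM per kilobase of annotated exon (vertical axis, log scale, linear below 0.01) of 2 T cell genes (Cd3e, Foxp3), the 9 members, the class II gene H2-Aa and the B cell gene Pax5, with 1 point per library as in the plot of member levels. Ighm lies above Cd3e and Foxp3 in all 6 libraries, while Cd79a, Ms4a1 and Pax5 lie below 1 in all libraries but for Cd79a in WT replicate 3. Of genes not drawn here, Trac was above Ighm and the B cell genes Cd22 and Cd72 were above 1 in all 6 libraries.

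Ordered by the mean level per kilobase over the 6 libraries, the members ran from Ighm (330.4) through Cd74 (88.5), Igkc (41.5), Cd79b (10.8), Ighd (2.03), Jchain (1.05), Ighg2b (0.708) and Cd79a (0.517) to Ms4a1 (0.111). The ranges over libraries of Ighm and Cd74 did not overlap, nor did those of Igkc and Cd79b or of Cd79b and Ighd. Cd74 and Igkc overlapped only through WT replicate 3, and so did each pair of neighbours from Ighd downwards. In each of the other 5 libraries Cd79a lay above Ighg2b, which stands before it in the order of means.

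Igkc (ENSMUSG00000076609, chr6:70703419-70703950, plus strand), the only κ constant gene, had both a base level and a high library. It was at 17.2, 14.8 and 51.7 CPM in the WT replicates, from 1656, 1464 and 6156 counts, and at 21.4, 12.8 and 14.5 CPM in the KO replicates, from 1947, 1244 and 1267 counts. WT replicate 3 was 3.48 times the median of the others, and the other WT replicates lay within the range of the KO replicates. Of its 532 exon bases, 521 are shared with Gm68839 on the opposite strand, and whether counting used the strand is not given in the sources used here. Per kilobase, Igkc was 59.5 to 123 times Cd79a in the 5 libraries and 78.3 times in WT replicate 3, so this ratio, unlike that of Ighm to Cd79a, did not set the library apart.

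Ighg2b (ENSMUSG00000076613, chr12:113266585-113271553, minus strand), the γ2b constant gene used after switching, was nearly absent outside 1 library. Its counts were 30, 11 and 1226 in the WT replicates and 32, 29 and 0 in the KO replicates, or 0.311, 0.112 and 10.3 CPM and 0.352, 0.298 and 0 CPM. The 0 in KO replicate 3 allows a level of up to 0.0343 CPM, and WT replicate 3 was 34.5 times the median of the others. Over 1219 bases Ighg2b is 87.7% identical to Ighg2c, so the estimated counts may divide some reads between them. Ighg2c, the γ2c gene of this strain background, had the same high library, at 1.95, 0.0608 and 24.4 CPM in the WT and 4.99, 0.257 and 0.286 CPM in the KO replicates.

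Jchain (ENSMUSG00000067149, chr5:88667668-88675750, minus strand), which marks cells that secrete antibody, was at 0.945, 0.345 and 10.4 CPM in the WT replicates, from 91, 34 and 1242 counts. In the KO replicates it was at 2.88, 0.473 and 0.812 CPM, from 262, 46 and 71 counts. WT replicate 3 was 12.8 times the median of the others. KO replicate 1 came next for Jchain, and also for Ighg2c, for Igha (2.82 CPM against 5.01 in WT replicate 3 and 0.297 to 0.696 in the other 4 libraries) and for the λ gene Iglc2.

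The makeup of the constant gene counts followed the same split. Ighm took 98.1% to 99.1% of the counts of all heavy chain constant genes in 5 libraries and 92.2% (95% Wilson interval 91.99 to 92.4) in WT replicate 3. Switched genes (γ and α) took 0.255% to 1.38% in the 5 libraries and 7.16% (6.98 to 7.35) in WT replicate 3, where they summed to 5363 counts. Among light chain constant counts the κ share was 92.1% to 99.3% in the 5 libraries and 83.9% (83.0 to 84.7) in WT replicate 3. The intervals cover counting error only. Of the 6 other immunoglobulin constant genes tested, 5 reached 3 times the median of the other libraries in WT replicate 3, and Ighg3, at 0.789 to 1.77 CPM, was the exception.

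The upstream segments, which were looked at after the values of Ighm had been seen, divided in the same way. The 4 J segments shown above summed to 1202, 1434 and 1264 counts in the WT replicates and 1252, 1100 and 1109 counts in the KO replicates, with averages of 12.5 ± 1.96 and 12.6 ± 1.24 CPM (mean ± SD, n = 3 each). Ighj2, whose annotated exons reach beyond the J segment, gave 240 to 317 of these counts in each library. Ighd4-1, the D segment nearest to them, had 438, 503 and 462 counts and 335, 445 and 372 counts. Like Ighm, these segments were present at a like level in every library, and none had a high value in WT replicate 3. The 96 V genes of the heavy chain with a count did the reverse, with 260, 140 and 3759 counts in the WT and 628, 75 and 234 counts in the KO replicates, 11.8 times the median of the others in WT replicate 3. There were 0.0682 to 0.502 V counts per J count in 5 libraries and 2.97 in WT replicate 3. Per 100 counts of Ighm there were 0.132 to 1.04 V counts in the 5 libraries and 5.44 in WT replicate 3. For the κ chain the contrast was smaller, with 4.30 to 33.1 V counts per 100 counts of Igkc in the 5 libraries and 55.5 in WT replicate 3.

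**Figure D3:**
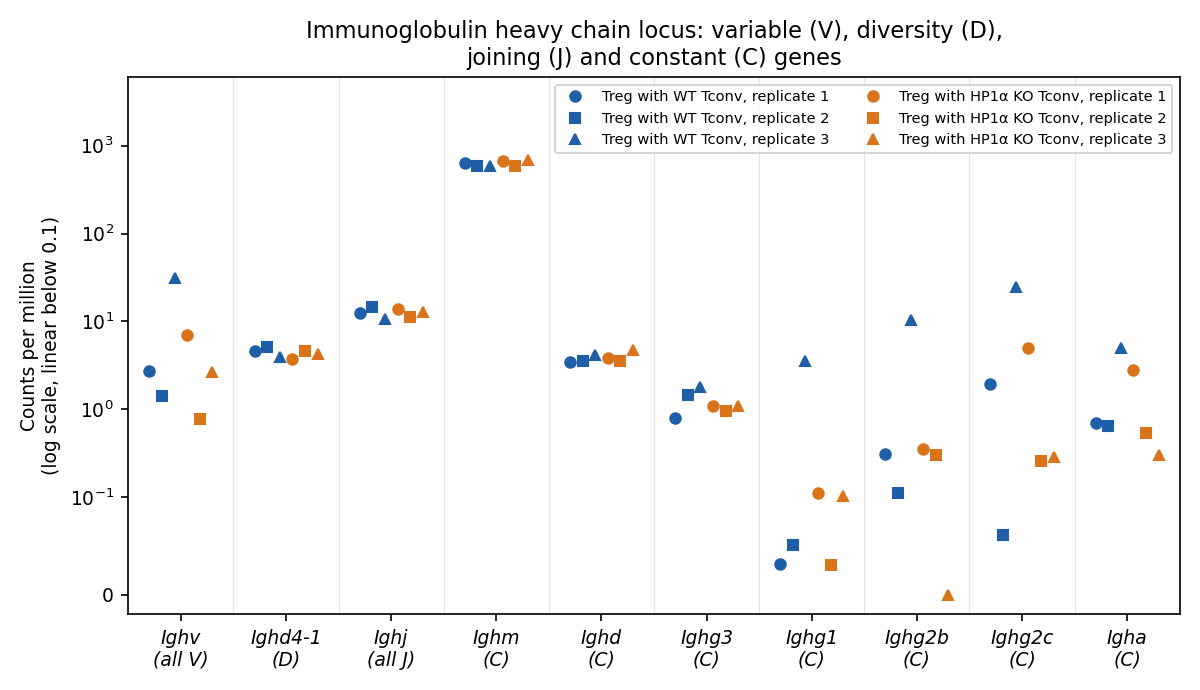
CPM (vertical axis, log scale, linear below 0.1) of the V genes summed, the D segment Ighd4-1, the J segments summed and the constant genes of the heavy chain locus, in locus order, with 1 point per library. The D and J segments, Ighm and Ighd have 6 points close together, while the V genes, Ighg1, Ighg2b, Ighg2c and Igha have the blue triangle, WT replicate 3, on top.

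These values bear on the name given to the 9 genes, transcripts left from B and plasma cells. Over the members, Ighm and Cd74 held 95.2% to 96.4% of the summed counts in 5 libraries and 89.6% in WT replicate 3. Pax5, the factor that holds B cell identity, was near the bottom of the range in the same 5 libraries, with 10 to 46 counts there and 225 in WT replicate 3 (it was singled out after its values were seen). Per kilobase that is 0.0115 to 0.0594 CPM for Pax5, beside 310.6 to 363 CPM for Ighm in these 5 libraries. In WT replicate 3 Pax5 was 7.06 times the median of the others, where Ighm was 0.921, Cd79b 1.03, Ighd 1.17 and Cd74 1.19 times theirs, and Cd79a, Ms4a1, Igkc, Ighg2b and Jchain were highest in that library as Pax5 was. Of the 15 tested B cell genes other than the members, 9, Pax5 among them, reached 3 times the median of the others there and 6 did not. The 6 include Cd22 (1.03 times) and Cd72 (0.718 times), both at a higher level than Pax5. The members did not share 1 pattern, and the source of their RNA was not tested. The 9 genes are therefore called by their symbols here, and their sum is not read as an amount of B cells.

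The wider lists gave the same division. Of 15 tested B cell genes other than the members, 9 reached 3 times the median of the other libraries in WT replicate 3 and 6 did not. The 4 of highest level, the inhibitory receptors Cd72 (13.5 to 19.7 CPM) and Cd22 (9.16 to 16.9 CPM), the coactivator gene Pou2af1 (2.14 to 6.09 CPM) and the kinase gene Blk (1.30 to 3.23 CPM), were all among the 6 that did not. Of 11 tested plasma cell genes, only Mzb1, a chaperone of antibody assembly (0.899 CPM there and at most 0.239 CPM elsewhere), did. The plasma cell genes of highest level, which activated T cells are also known to express, were steady, with Xbp1 at 127 to 171 CPM, Prdm1 at 80.2 to 102 CPM, Txndc5 at 55.4 to 73.9 CPM and Cd38 at 34.2 to 44.1 CPM. Tnfrsf17, the BCMA receptor of plasma cells, was at 0 in 5 libraries. Rag1, of the B cell precursor list, was at 5.68 to 7.41 CPM in all 6 libraries, and Rag2, its partner in recombination, at no more than 0.149 CPM.

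WT replicate 3, in which the 5 members were high, was also the library with the high sums of red cell, neutrophil and macrophage genes given above. In that library all 10 neutrophil and all 8 red cell genes tested reached 3 times the median of the others, as did 9 of the 15 other B cell genes, 6 of 10 macrophage and monocyte genes and 0 of 11 T cell and Treg genes. The part of these cells, and of B cells, in the levels of the 5 members was not tested.

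**Figure D4:**
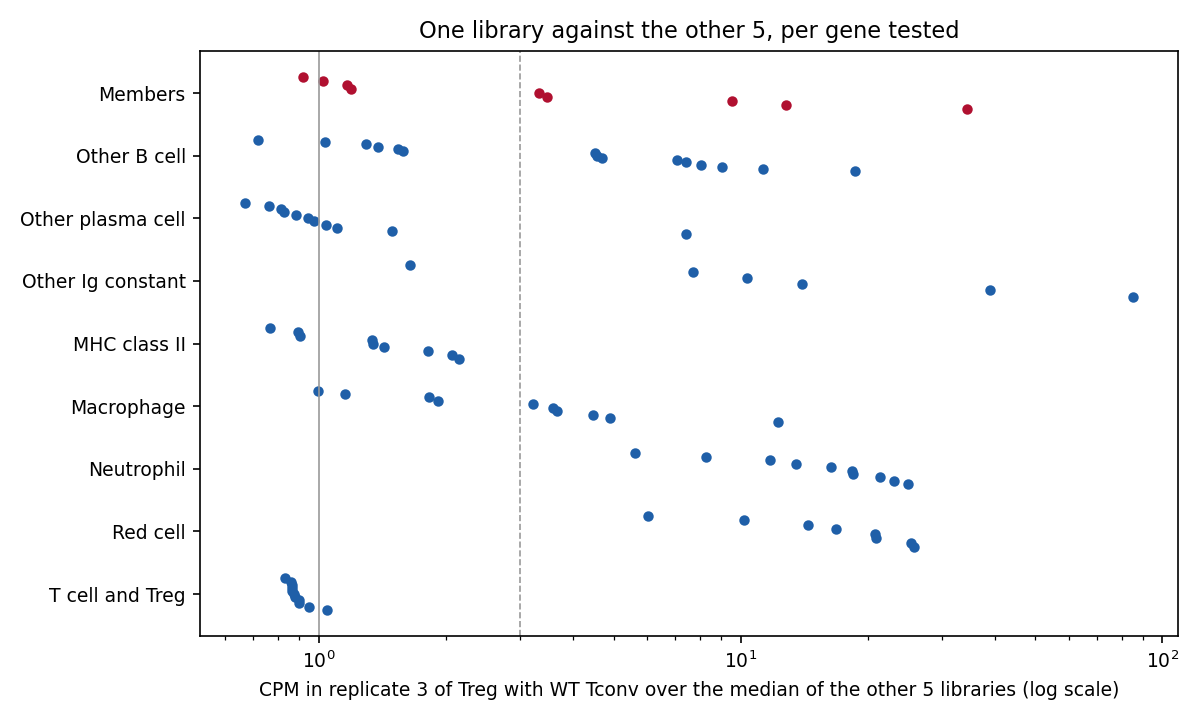
For each tested gene of a list (1 point per gene, rows by list), CPM in WT replicate 3 over the median of the other 5 libraries (horizontal axis, log scale), with a solid line at 1 and a dashed line at 3. The members form 2 clusters, 4 near 1 and 5 beyond 3, the other B cell genes divide likewise, all red cell and neutrophil genes lie beyond 3, and all T cell and Treg genes lie near 1.

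The comparison the groups were made for asked whether Treg differ according to the Tconv, WT or KO, that they had met. For the members it gave no call. With edgeR's quasi-likelihood test and Benjamini-Hochberg adjustment, 0 of the 9 members had an adjusted p-value under 0.05, where 0% of all 18321 tested genes had one, and 0 had an unadjusted p-value under 0.05, where 14.5% of all genes did. DESeq2 gave an adjusted p-value to 6 of the 9 and called 0 of them, where it called 4.35% of the 12097 genes to which it gave one. The groups overlapped for all 9 members, where they did not overlap for 23.9% of all genes. The log2 fold change (KO over WT) was below 0 for 6 of the 9, where it was for 51.5% of all genes, and its median was -0.70 over the members and -0.0085 over all genes. WT replicate 3 decided both values, since without it 1 of the 9 was below 0, where 48.7% of all genes were, and the median was 0.18 over the members and 0.0078 over all genes. The neutrophil, macrophage and red cell lists moved the same way. Without that library 0 of 10, 2 of 10 and 0 of 8 of their genes were below 0, with medians of 1.27, 1.10 and 0.60. So did the other B cell and immunoglobulin constant genes, with 4 of 15 and 1 of 6 below 0 and medians of 0.37 and 1.05. The plasma cell list did not, with 6 of 11 below 0 and a median of -0.013. The part of the cells of these lists in the members' values was not tested. Without WT replicate 3, too, 0 of the 9 members passed, where 0% of all genes did. The groups were then apart for 1 of the 9, Cd79b, where they were for 32.8% of all genes.

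Ighm, Cd79b, Cd74 and Ighd, which were not high in WT replicate 3, had small differences, with an SE that was largest for Cd74. Ighm averaged 601 ± 25.7 CPM in Treg exposed to WT Tconv and 645 ± 52.1 CPM in Treg exposed to KO Tconv (mean ± SD, n = 3 each). Its log2 fold change was 0.064, the standard error (SE) 0.0839 and the edgeR adjusted p 0.757. Without KO replicate 2 it was 0.14 (SE 0.0576, edgeR adjusted p = 0.292), and without KO replicate 3 it was 0.019 (SE 0.0915, edgeR adjusted p = 0.954). Cd79b averaged 14.3 ± 1.21 and 16.5 ± 2.13 CPM (mean ± SD, n = 3 each), with a log2 fold change of 0.17, an SE of 0.120 and edgeR adjusted p = 0.556. The difference of Ighm was below the larger SD and that of Cd79b about equal to it, and neither passed. Without WT replicate 3, where the groups of Cd79b were apart, its log2 fold change was 0.24 (SE 0.127, edgeR adjusted p = 0.512), and without KO replicate 3, its highest library, it was 0.055 (SE 0.113, edgeR adjusted p = 0.878). Cd74 (log2 fold change -0.026, SE 0.248, edgeR adjusted p = 0.973) and Ighd (0.088, SE 0.170, edgeR adjusted p = 0.838) differed by less than their SE, and the sign of both turned without KO replicate 3 (0.19 and -0.042). That of Cd74 turned also without WT replicate 3 (0.10) and with total counts only (0.014). A p-value that misses the threshold does not show that the groups were alike.

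The members that were high in WT replicate 3 had larger differences with large errors. Igkc averaged 27.9 ± 20.6 and 16.2 ± 4.58 CPM (mean ± SD, n = 3 each), with a log2 fold change of -0.82, an SE of 0.601 and edgeR adjusted p = 0.594. Without WT replicate 3 its log2 fold change was -0.0112. For Ighg2b (3.57 ± 5.82 and 0.217 ± 0.190 CPM, mean ± SD, n = 3 each) it was -4.07 (SE 2.29, edgeR adjusted p = 0.505) with all libraries and 0.0137 without that one. WT replicate 3 thus set the size of both differences. Jchain went from -1.53 (SE 1.56) to 1.09 without it, Ms4a1 from -1.30 (SE 1.35) to 0.88 and Cd79a from -0.70 (SE 0.664) to 0.25, so that the direction of these 3 turned as well. With all libraries, edgeR adjusted p was 0.701 for Jchain, 0.705 for Ms4a1 and 0.668 for Cd79a.

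**Figure D5:**
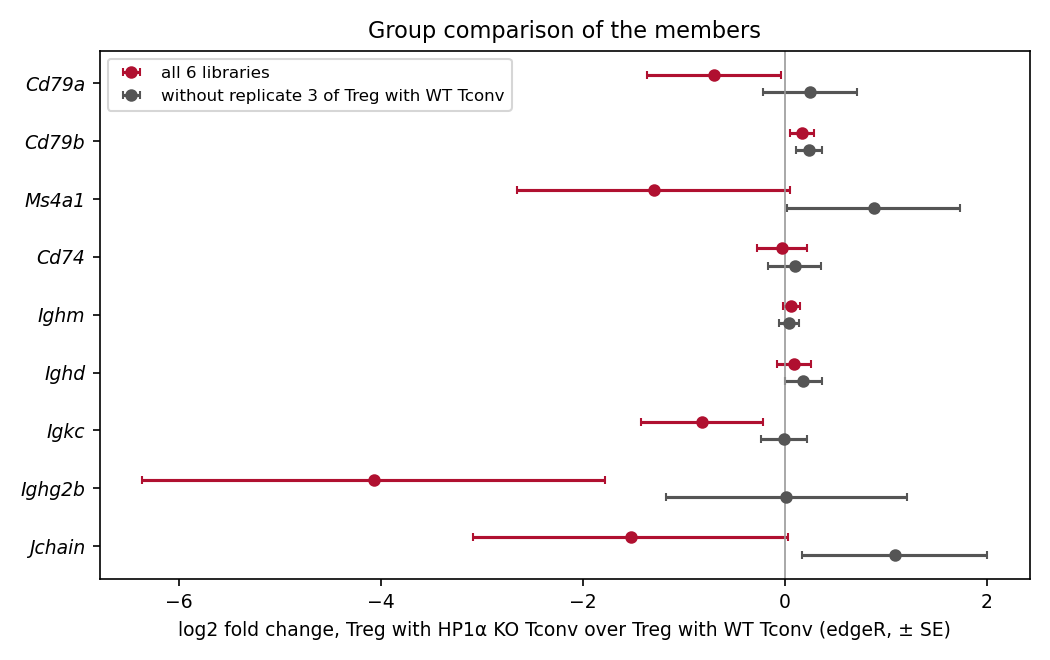
Log2 fold change of each member, Treg exposed to HP1α KO Tconv over Treg exposed to WT Tconv (horizontal axis, edgeR, bars ± SE), with all 6 libraries in red and without WT replicate 3 in grey. Ighm, Cd79b, Cd74 and Ighd lie close to 0 in both, and the red points of Ighg2b, Jchain, Ms4a1, Igkc and Cd79a lie at -4.07 to -0.70 while the grey ones lie at -0.0112 to 1.09.

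Summed over the 9 members, the level was 882, 821 and 932 CPM in the WT replicates and 937, 909.7 and 877 CPM in the KO replicates, with means of 878 ± 56.0 and 908 ± 30.2 (SD, n = 3). The sum hid the high library, since Ighm and Cd74 carried most of it. Cd79a, Cd79b and Ms4a1 together averaged 16.2 ± 3.25 and 17.5 ± 2.45 CPM, and the immunoglobulin and J chain members 640.6 ± 23.4 and 667 ± 55.6 CPM (mean ± SD, n = 3 each). Each of these differences was below the larger SD with all libraries. That of the 9 members (KO minus WT), 29.7 CPM, was 0.894 CPM without WT replicate 2, 56.8 CPM without WT replicate 3 and 6.58 CPM with TMM-scaled totals. That of Cd79a, Cd79b and Ms4a1, 1.28 CPM, was 3.14 CPM without WT replicate 3 and -0.109 CPM without KO replicate 3. That of the immunoglobulin and J chain members, 26.2 CPM, was 58.2 CPM without KO replicate 2 and 7.53 CPM without KO replicate 3.

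Among the wider lists, 0 genes passed with edgeR after adjustment, where 0% of all genes did. DESeq2 called 1 of the 11 T cell and Treg genes and 0 of the B cell, plasma cell and immunoglobulin constant lists, where it called 4.35% of all genes given an adjusted p-value. Of 15 tested B cell genes, 0 had an unadjusted p-value under 0.05 in the direction of Treg exposed to KO Tconv and 1, Cd22, in the other (log2 fold change -0.44, edgeR adjusted p-value 0.289), where 7.52% of all tested genes did in that direction. Of 11 plasma cell genes the counts were 0 and 1, the latter Prdm1, which encodes Blimp-1 (log2 fold change -0.21, edgeR adjusted p-value 0.284). Of the 6 other immunoglobulin constant genes the counts were 0 and 0. Ighg2c, Igha, Iglc1 and Ighg3, those of highest level, were at -2.29, -0.83, -2.82 and -0.41 (log2, KO over WT), and their edgeR adjusted p was 0.700, 0.807, 0.620 and 0.578. Without WT replicate 3 the direction turned for Ighg2c (0.86), Igha (0.83) and Iglc1 (1.63) and not for Ighg3 (-0.15), with edgeR adjusted p = 0.908, 0.805, 0.679 and 0.886. The counts of the B cell, plasma cell and constant gene lists at an unadjusted p-value under 0.05 had the same values without that library, where 5.72% of all genes were lower in Treg exposed to KO Tconv by that measure. Directions were not kept. Of the 15 B cell genes, 13 were below 0 with all libraries (median -0.66). Without WT replicate 3, 4 were (median 0.37), where 48.7% of all genes were. In that fit 4 of the 15 had groups apart, higher in Treg exposed to KO Tconv, as for 19.9% of all genes. The constant genes below 0 went from 6 to 1 of 6 (medians -1.03 and 1.05), and the plasma cell genes from 4 to 6 of 11 (0.014 and -0.013). The D and J segments had edgeR adjusted p-values of 0.694 (Ighd4-1) to 0.997 (Ighj3).

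The genes whose pattern over the 6 libraries was most like that of the members were found by the root mean square difference of centred log2 CPM. For the sum of Cd79a, Cd79b and Ms4a1, which Cd79b dominates, these were Hspb6 (0.0637), Gm37537 (0.0714), Gm20634 (0.0717), Hrob (0.0750) and Exo1 (0.0782), among 3943 genes that varied at least as much. For the sum of Ighm, Ighd, Igkc, Ighg2b and Jchain, which Ighm dominates, they were Abl1 (0.0179), Ankrd13a (0.0224), Exosc7 (0.0240), Smap1 (0.0252) and Phka2 (0.0271), among 10596 genes. None of these 10 genes is in a B cell or plasma cell list used here.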

How the data were processed

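Total RNA of 6 Treg libraries had been sequenced as stranded, paired-end libraries. Per the labels and the study's methods, the authors aligned the reads with STAR to GRCm39 and estimated counts per gene with Salmon, and the deposited values are these estimated counts, not normalized and already whole. Ambiguous reads are divided by a model, which can move counts between near-identical or overlapping genes. No per-sample column was left unused (0).

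Groups came from the labels. Genes were tested with the quasi-likelihood test of edgeR version 4.0.16 (robust, TMM, filterByExpr, group only) in R version 4.3.3, and p-values were adjusted over all genes tested. CPM used the library total without TMM. Alternatives were DESeq2 version 1.42.0, limma-voom version 3.58.1, 3 other scalings, 2 other filters, a replicate block, and each library left out. Positions and exon lengths came from a later annotation of GRCm39, and promoters from RefSeq. Near-identical genes were aligned with BLAST version 2.17.0.

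The members and lists were chosen with earlier results of these data known. Named genes were the members and the 4 genes of highest mean CPM in the other B cell, plasma cell, immunoglobulin constant and class II lists (lists of other cells are given as sums). Foxp3, Cd3e and Cd4 were also named, as were Rag1 and Rag2 of the B cell precursor list. So were the 5 genes most like each of 2 member sums (prior count 2, mean of at least 1 CPM). Others are given to show a division or a count. Intervals and floors are for counting error alone, because PCR copies were not marked by molecular identifiers.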

Additional observations from a re-analysis of the deposited data

How the results depend on the processing

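The count of members called between groups stayed at 0 in all 14 alternatives (DESeq2, limma-voom, RLE, upper quartile and total count scaling, no filter, at least 10 counts in every library, the replicate block and 6 fits that each left out a library). Over all genes, edgeR called 0% with all libraries and 0% without WT replicate 3, and DESeq2 called 4.35% of genes given an adjusted p-value. A count of 0 among the members thus says little. For the other alternatives the share over all genes is not given. Ms4a1 and Ighg2b could not be fitted with at least 10 counts in every library. Without WT replicate 3 the log2 fold change turned for Cd79a (0.25), Ms4a1 (0.88), Cd74 (0.10), Ighg2b (0.0137) and Jchain (1.09), and without KO replicate 3 for Cd74 (0.19) and Ighd (-0.042). With total counts only, that of Cd74 was 0.014. Over the fits that left out a library it ranged from -1.04 to 0.25 for Cd79a, from 0.055 to 0.24 for Cd79b, from -1.78 to 0.88 for Ms4a1, from -0.25 to 0.19 for Cd74, from 0.019 to 0.14 for Ighm, from -0.042 to 0.18 for Ighd, from -1.11 to -0.0112 for Igkc, from -4.63 to 0.0137 for Ighg2b and from -2.64 to 1.09 for Jchain. In the same fits the difference of summed CPM (KO minus WT) ranged from 0.894 to 56.8 for the 9 members, from -0.109 to 3.14 for Cd79a, Cd79b and Ms4a1 and from 7.53 to 58.2 for the immunoglobulin members. With TMM-scaled totals these differences were 6.58, 0.846 and 9.73 CPM. That of the Ighm share ranged from -0.226 to 3.20 percentage points and that of the κ share from -4.79 to 2.93. In counts added after the data were seen, leaving out a library gave 1 to 6 members with a log2 fold change below 0 (6 with all libraries) and 2 to 7 tested class II genes whose groups do not overlap (2 with all libraries), and the 1 and the 7 were both without WT replicate 3. The values of the wider lists without that library were also added then. The cause was not tested. Depth limits Ms4a1, Cd79a and Ighg2b most, at 6 to 56 counts, 29 to 76 counts and 0 to 32 counts outside WT replicate 3.

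With the replicate number as a block, 0 members were called (the share over all genes is not given). The log2 fold change was then -1.34 for Ighg2b, -0.42 for Jchain and -0.85 for Ms4a1, where it was -4.07, -1.53 and -1.30 without the block. That of Jchain was -0.73 with limma-voom. Deviations of same-numbered libraries correlated at -0.0420, 0.182 and 0.117, and those of differently numbered libraries at -0.218 to 0.121. These ranges overlapped and do not settle whether the numbers pair the samples. The sources used here name no pairing, so none was assumed.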
